A study of Mus musculus with 13 samples.

Results

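Mitochondrial chaperones and quality-control proteases are represented here by 10 of the 47937 genes in the count table, chosen by name: Hspd1, Hspe1, Hspa9, Dnaja3, Lonp1, Clpp, Clpx, Afg3l2, Spg7 and Htra2. All 10 were found by gene identifier, and all 10 passed the filter on low counts in every comparison. RNA came from thymocytes of 7 C57BL/6 mice aged 6 weeks, sorted at the double negative stages DN3 and DN4, which precede and follow β-selection. The control animals were Wt;Lck-Cre+ (Wt), and the others were Opa1fl/fl;Lck-Cre+, called KO as in the sample labels. Animals of both genotypes carried the Lck-Cre transgene, whose promoter is active in developing T cells. The sorted cells were not treated. The labels do not name the mouse in words, and the number in a sample's name was taken as its mouse. On that reading, both stages were sequenced from 3 KO mice (KO45, KO49, KO51) and 3 Wt mice (WT05, WT46, WT48). Only DN4 cells were sequenced from 1 more Wt mouse, WT40, so that there are 3 libraries in each group but the 4 of Wt DN4. Values of single libraries are given in the order of these mouse numbers, with WT40 after WT05. The comparisons asked how RNA of these genes differed between the stages and between the genotypes.

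Proteins imported into the mitochondrial matrix arrive unfolded. The HSP70-type chaperone mortalin, with J-protein partners, receives and folds them, and the chaperonin built of HSP60 and its lid HSP10 encloses those that need a closed chamber. Proteins that stay misfolded or unassembled are degraded by ATP-dependent proteases of the matrix and inner membrane, and by HTRA2 in the intermembrane space. OPA1, the product of the floxed gene, is itself cut by proteases of the inner membrane.

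Libraries held 5926848 to 14148661 counts on genes, and the members had from 72 counts (Clpp in DN3 WT05) to 7318 counts (Hspd1 in DN3 KO51) in a library. Levels are counts per 1000000 (CPM) on library sizes scaled by edgeR's TMM method. In the DN3 library of WT05, 31.7% of counts fell on ribosomal RNA-like genes, against 0.387% to 1.52% elsewhere, so the tests on Wt DN3 cells and the correlations were also computed without it. Opa1 RNA did not separate the genotypes: KO minus Wt was -0.12 (log2, SE 0.133) in DN3 and -0.08 (SE 0.0881) in DN4, with adjusted p = 1 and 0.945 by edgeR's quasi-likelihood test, Benjamini-Hochberg-adjusted. A floxed allele can keep most of a gene's reads, since counts over the gene do not resolve single exons, so genotypes were taken from the labels. All 3 KO mice and 2 of 4 Wt mice had over 1000 counts of Xist, an RNA of the inactive X chromosome, in each library, so sex was not balanced between genotypes. The summed DN3 markers ran from 2048 to 2866 CPM in DN3 libraries and from 442 to 1839 CPM in DN4 libraries. Markers of B cells summed to 20.9 to 53.4 CPM in DN3 and 226 to 2877 CPM in DN4, and the 4 markers of immature single positive and double positive cells to 53.8 to 116 CPM and 323 to 2926 CPM.

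Per kilobase of exon, the chaperonin and mortalin genes stood highest. Hspd1, which encodes HSP60, averaged 206 ± 57.6 CPM per kb (SD, n = 13 libraries). Hspa9, which encodes mortalin, followed with 106 ± 24.4 CPM per kb and lay below Hspd1 in 13 of 13 libraries. Hspe1, which encodes HSP10, had 97.1 ± 22.8 CPM per kb and lay below Hspa9 in 12 of 13. The first protease in the order was Lonp1, at 34.3 ± 4.01 CPM per kb. Clpp, at 26.1 ± 4.04, was below Lonp1 in 13 of 13 libraries, and Spg7, at 18.1 ± 1.44, was below Clpp in 12. The order of the next 3 was not the same in every library: Htra2 (15.7 ± 2.76 CPM per kb) was below Spg7 in 9, Dnaja3 (14.2 ± 2.07) below Htra2 in 10 and Clpx (13.9 ± 1.25) below Dnaja3 in 8 of 13. Afg3l2, at 7.56 ± 0.753 CPM per kb, was below Clpx in 13 of 13, with an annotated exon length of 9.87 kb that counts every annotated exon. Levels also differed in how much they varied. The ratio of the highest to the lowest library was 3.03 for Hspd1, 2.47 for Hspe1 and 2.33 for Hspa9, and 1.26 for Spg7, the steadiest member.

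**Figure D1:**
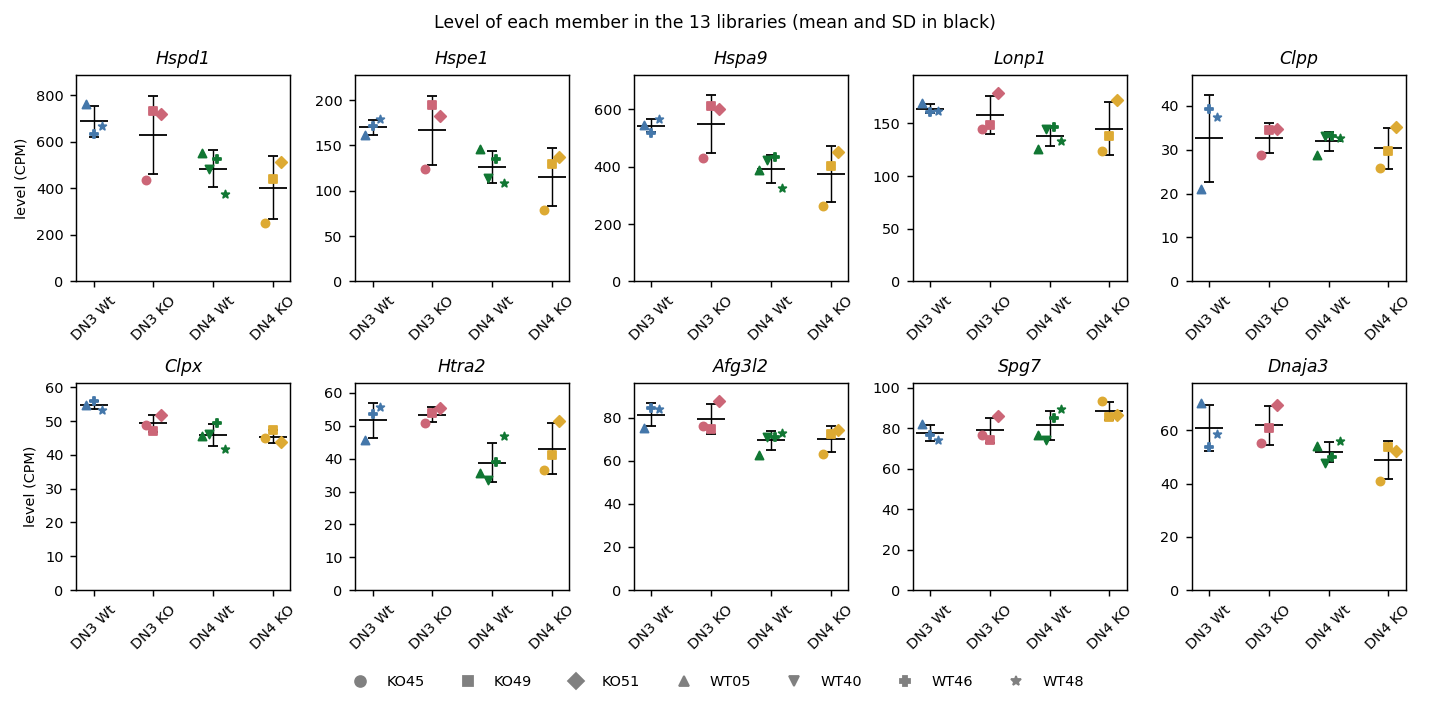
Normalised read counts (CPM, linear axes from 0) of the 10 genes in each library, in 1 panel a gene, with groups by stage and genotype and 1 point a library (marker shapes are mice); black bars are the mean and SD of a group. In Wt cells the 4 DN4 points of Hspd1, Hspe1, Hspa9, Lonp1, Clpx and Afg3l2 sit below the 3 DN3 points, and KO and Wt points of 1 stage overlap for all genes but Clpx in DN3.

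Hspd1 (ENSMUSG00000025980.14, GRCm38 chromosome 1 from 55077835 to 55088243, minus strand) and Hspe1 (ENSMUSG00000073676.4, chromosome 1 from 55088132 to 55091307, plus strand) lie head to head and overlap by 112 bases on opposite strands. The bases before each start are shown because these 2 genes moved together across libraries (Pearson's r = 0.96 over 13 libraries, which share stage and depth), and those of Lonp1 because it is the protease with the highest level. They come from RefSeq's GRCm38.p6 annotation and are written 5′ to 3′ on the gene's strand, 250 bases each, for Hspd1 at chr1:55088244-55088493 (minus), which lies inside Hspe1, for Hspe1 at chr1:55087898-55088147 (plus), which lies inside Hspd1, and for Lonp1 at chr17:56626904-56627153 (minus). Capitals mark the motifs found.
Hspd1: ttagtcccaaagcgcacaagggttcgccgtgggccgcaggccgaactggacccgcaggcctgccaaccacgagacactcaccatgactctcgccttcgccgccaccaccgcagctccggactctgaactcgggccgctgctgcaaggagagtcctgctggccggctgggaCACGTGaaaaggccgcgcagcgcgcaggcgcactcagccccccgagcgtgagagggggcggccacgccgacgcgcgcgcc
Hspe1: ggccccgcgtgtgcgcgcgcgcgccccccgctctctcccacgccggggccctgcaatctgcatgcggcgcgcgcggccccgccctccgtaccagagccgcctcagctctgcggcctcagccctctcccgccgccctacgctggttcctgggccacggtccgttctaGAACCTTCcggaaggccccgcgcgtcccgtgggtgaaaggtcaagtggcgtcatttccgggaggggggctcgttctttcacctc
Lonp1: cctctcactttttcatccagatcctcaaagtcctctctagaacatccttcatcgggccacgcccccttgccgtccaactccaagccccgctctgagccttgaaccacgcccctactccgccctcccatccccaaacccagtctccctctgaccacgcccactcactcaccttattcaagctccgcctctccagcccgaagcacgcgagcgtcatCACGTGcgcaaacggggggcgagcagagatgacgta

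Windows of 300 bases, from 250 before to 50 after the start, were in the table for 7 of the 10 genes, with 8 windows in all since Hspd1 has 2. On both strands, 4 motifs were searched: TGATGNAA (the composite element of CHOP and ATF4), CACGTG (an E-box), GAANNTTC (2 heat shock element units facing each other) and CATGCGC (the core of the NRF1 element). The E-box stood at -80 from the Hspd1 start and at -36 from the Lonp1 start, and 7.15% of 32817 mouse windows hold it. The heat shock pair stood at -84 from the Hspe1 start, and the second Hspd1 window holds the same bases, chr1:55088064-55088071, on the other strand. That pair is in 7.86% of all windows. The NRF1 core stood at -85 from the Clpx start (3.9% of all windows), and none of the 8 windows held TGATGNAA (3.97% of all windows). These matches are letters in a sequence and no binding was measured.

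From DN3 to DN4 in Wt cells, the chaperonin and mortalin RNAs fell. Hspd1 had 763, 632 and 666 CPM in the DN3 libraries (WT05, WT46, WT48) and 552, 482, 526 and 373 CPM in the DN4 libraries (WT05, WT40, WT46, WT48). Hspe1 had 162, 171 and 179 CPM in DN3 and 146, 114, 135 and 108 CPM in DN4. Hspa9 (GRCm38 chromosome 18, minus strand), with 545, 519 and 565 CPM in DN3, had 390, 423, 435 and 325 CPM in DN4. For all 3 genes, every DN4 library lay below every DN3 library, and DN4 WT48 was the lowest. The log2 change was -0.53 for Hspd1 (SE 0.158, adjusted p = 0.042), -0.47 for Hspe1 (SE 0.127, adjusted p = 0.0302) and -0.49 for Hspa9 (SE 0.129, adjusted p = 0.0261) by edgeR's quasi-likelihood test, Benjamini-Hochberg-adjusted over 12691 genes. These correspond to DN4 levels of 0.691, 0.724 and 0.711 times the DN3 level. The 3 genes were the members called, all lower, where 22.9% of all genes tested were called and 9.43% were called lower. In bulk RNA, fewer cells of a type and less RNA per cell cannot be told apart.

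These calls depend on which libraries enter the fit. With the mouse as a block, which leaves out WT40, 0 members were called, where 6.53% of all genes were called lower, and the changes were -0.55, -0.43 and -0.54 for Hspd1, Hspe1 and Hspa9 (adjusted p = 0.0984, 0.118 and 0.0866 by edgeR's quasi-likelihood test, Benjamini-Hochberg-adjusted). Without the DN3 library of WT05, 3 members were called lower, Hspe1, Hspa9 and Htra2, where 25.7% of all genes were called, and Hspd1 had -0.46 with an adjusted p of 0.0721. Without DN3 WT46, DN3 WT48 or DN4 WT40, 0 members were called, and the share of all genes called was 14.4%, 14.6% and 18.7%. As the fit with the block also lacks WT40, the part of the block itself cannot be told apart. Without DN4 WT05 only Hspe1 was called (14.8% of all genes), and without DN4 WT46 or DN4 WT48 2 members (19.6% and 20.4%). DESeq2 and limma-voom each called 4 members lower, the same 3 and Htra2, where 11.4% and 9.79% of genes were called lower.

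The J-protein and the proteases had smaller differences in Wt cells, none of them past the threshold. Dnaja3 (chromosome 16 from 4639989 to 4707695), which encodes the J-protein TID1 that works with mortalin, had 70.5, 53.6 and 58.7 CPM in DN3 and 54.1, 47.6, 50.2 and 56.0 CPM in DN4. Htra2 (chromosome 6 from 83051266 to 83055273), the intermembrane-space serine protease, had 45.6, 53.7 and 55.8 CPM in DN3 and 35.6, 33.4, 39.0 and 47.0 CPM in DN4. The Htra2 groups overlapped through DN3 WT05 and DN4 WT48, and the Dnaja3 groups through DN3 WT46 and the DN4 libraries of WT05 and WT48. The log2 difference was -0.45 for Htra2 (SE 0.149, adjusted p = 0.0643) and -0.25 for Dnaja3 (SE 0.127, adjusted p = 0.203) by edgeR's quasi-likelihood test, Benjamini-Hochberg-adjusted. Without DN3 WT05, the value for Dnaja3 was -0.15 (SE 0.106). Dnaja3 overlaps Coro7 and Vasn in the annotation, and Htra2 overlaps Loxl3 and Aup1. Spg7 overlaps the protein-coding gene Gm20388. Whether counting used the strand is not given in the sources used here, so reads of such neighbours may be counted with them. Vasn and Gm20388 lie on the same strand as the member, where the strand setting would not tell the reads apart.

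Lonp1 (chromosome 17 from 56614297 to 56626887), the matrix protease LON, had 169, 161 and 162 CPM in Wt DN3 and 126, 145, 147 and 133 CPM in Wt DN4. Clpx (chromosome 9 from 65294260 to 65330658), the ATPase that unfolds substrates for the CLPP peptidase, had 54.7, 55.8 and 53.4 CPM in DN3 and 45.7, 46.3, 49.5 and 41.6 CPM in DN4. Afg3l2 (chromosome 18, minus strand), a subunit of the m-AAA protease of the inner membrane, had 75.2, 84.5 and 84.2 CPM in DN3 and 62.8, 71.1, 70.9 and 72.8 CPM in DN4. For these 3 genes too, every DN4 library lay below every DN3 library, but the log2 differences of -0.27, -0.28 and -0.26 had adjusted p = 0.0801, 0.0902 and 0.115 by edgeR's quasi-likelihood test, Benjamini-Hochberg-adjusted. Groups thus did not overlap for 6 members, all lower in DN4, where 15.1% of 12625 genes with a mean of at least 1 CPM were separated in that direction. Without DN3 WT05 they were 8, with Clpp and Htra2 added, where 23.5% of genes were separated. Clpp (chromosome 17 from 56990305 to 56996188), the peptidase itself, had 21.1, 39.2 and 37.4 CPM in DN3 and 28.8, 33.1, 33.1 and 32.6 CPM in DN4. Its log2 difference was -0.07, with a 95% interval of -0.54 to 0.40, and DN3 WT05, with 72 counts, was the lowest library. Without that library it was -0.30 (SE 0.117), with an adjusted p of 0.102 by edgeR. Spg7 (chromosome 8 from 123062942 to 123097760), which encodes paraplegin, the m-AAA subunit that pairs with AFG3L2, had 81.9, 76.5 and 74.4 CPM in DN3 and 76.9, 74.3, 85.1 and 89.4 CPM in DN4. It was the member with a difference above 0, at 0.05 (95% interval -0.20 to 0.29). Over the 10 genes the median was -0.28, against -0.03 over all genes tested.

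In KO cells the same 9 members had values below 0, with 0 called at an adjusted p under 0.05 (18.6% of 12580 genes were called, 7.34% lower) and 5 lower with an unadjusted p under 0.05, as were 15% of all genes. Hspd1 had 435, 731 and 718 CPM in DN3 (KO45, KO49, KO51) and 252, 439 and 514 CPM in DN4. Hspe1 had 124, 195 and 182 CPM in DN3 and 79.0, 130 and 137 CPM in DN4. Hspa9 had 432, 612 and 600 CPM in DN3 and 263, 404 and 451 CPM in DN4. KO45 was the lowest of the 3 mice at both stages, so that its DN3 library lay below the DN4 library of at least 1 other mouse and the groups overlapped, while each mouse had less of each RNA in DN4. Without the block, the log2 differences were -0.66 (SE 0.285), -0.55 (SE 0.238) and -0.57 (SE 0.218) for Hspd1, Hspe1 and Hspa9, with adjusted p = 0.15, 0.151 and 0.11 by edgeR's quasi-likelihood test, Benjamini-Hochberg-adjusted. DESeq2 called 1 member lower, Hspa9, where 9.39% of genes were called lower, and limma-voom 0, where 7.23% were. Without DN4 KO51, edgeR called 2 members, Hspa9 and Htra2, and 21.1% of all genes.

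With the mouse as a block, 5 members were called lower in KO DN4 cells: Hspd1, Hspe1, Hspa9, Htra2 and Dnaja3, where 16.9% of all genes were called lower. Hspd1 fell by 0.69 on the log2 scale (SE 0.0958, adjusted p = 0.000571), Hspe1 by 0.57 (SE 0.0881, adjusted p = 0.00107) and Hspa9 by 0.60 (SE 0.0942, adjusted p = 0.00119) in edgeR's quasi-likelihood test, Benjamini-Hochberg-adjusted. Htra2 had 50.9, 53.9 and 55.5 CPM in DN3 and 36.4, 41.1 and 51.6 CPM in DN4. Dnaja3 had 55.3, 60.8 and 69.6 CPM in DN3 and 40.9, 53.7 and 52.2 CPM in DN4. Its groups and those of Afg3l2 did not overlap, so 2 members were lower throughout, where 16.4% of 12625 genes were separated in that direction. Spg7, with 76.6, 74.1 and 86.1 CPM in DN3 and 93.6, 85.6 and 86.6 CPM in DN4, again had a value above 0 (0.14, SE 0.104). The other proteases were 145, 149 and 179 against 124, 138 and 172 CPM for Lonp1, 28.7, 34.6 and 34.8 against 25.8, 29.7 and 35.3 CPM for Clpp, 48.9, 47.1 and 51.9 against 45, 47.4 and 43.7 CPM for Clpx, and 76.0, 74.7 and 87.6 against 63.2, 72.6 and 74.4 CPM for Afg3l2. Their log2 differences without the block ran from -0.20 (Afg3l2) to -0.13 (Clpp).

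Within mice, the members fell into those that went down in every animal and those that did not. Of 10 members, 7 were lower in DN4 than in DN3 in all 6 mice with both stages, where 18.1% of 12625 genes were. For Hspd1 the log2 changes were -0.79, -0.73 and -0.48 in the KO mice and -0.47, -0.26 and -0.84 in the Wt mice. Hspa9 followed it closely, with -0.71, -0.60, -0.41, -0.48, -0.26 and -0.80 in that order, and Hspe1 had -0.65, -0.59, -0.41, -0.15, -0.34 and -0.73. WT48 and KO45 had the larger falls of these 3 RNAs and WT46 or WT05 the smaller. The others lower in all 6 mice were Htra2 (-0.48 to -0.11), Dnaja3 (-0.43 to -0.07), Lonp1 (-0.42 to -0.05) and Afg3l2 (-0.26 to -0.04). Clpx was lower in 5 of 6 mice and Clpp in 4, and Spg7 was higher in 5, by up to 0.29 in KO45.

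**Figure D2:**
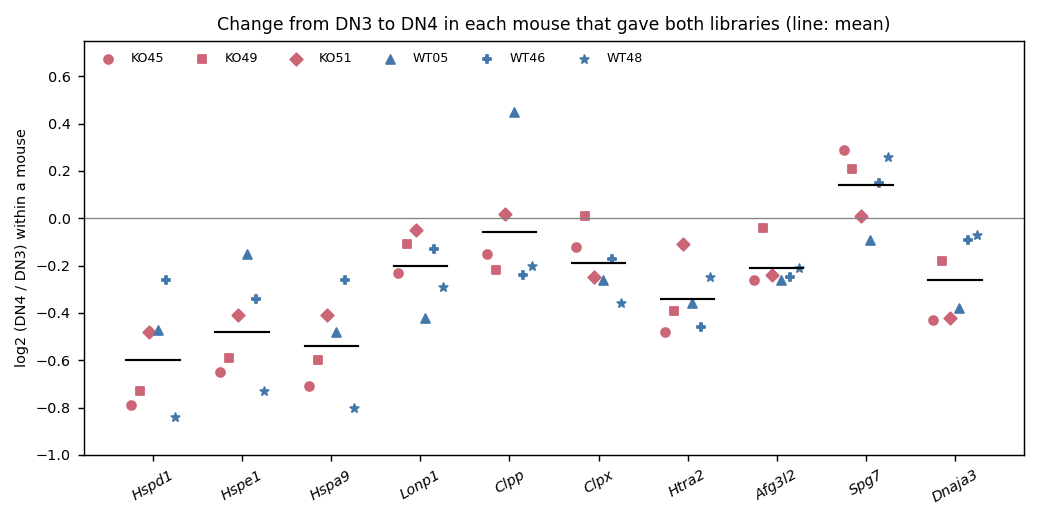
Log2 change in CPM from DN3 to DN4 within each of the 6 mice that gave both libraries, for the 10 genes; each point is a mouse and the line at 0 marks no change. All 6 points are below 0 for Hspd1, Hspe1, Hspa9, Lonp1, Htra2, Afg3l2 and Dnaja3, and 5 of 6 are above 0 for Spg7.

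A fit over both genotypes with the mouse as a block, added after the data were seen, called 7 of 10 members lower in DN4, where 41% of 13323 genes were called and 18% were called lower. Hspd1 fell by 0.60 (SE 0.0959, adjusted p = 0.000721), Hspa9 by 0.54 (SE 0.0896, adjusted p = 0.000831), Hspe1 by 0.48 (SE 0.0882, adjusted p = 0.00166) and Htra2 by 0.34 (SE 0.0807, adjusted p = 0.0068) on the log2 scale in edgeR's quasi-likelihood test, Benjamini-Hochberg-adjusted. Dnaja3 (-0.26, adjusted p = 0.0281), Afg3l2 (-0.21, adjusted p = 0.033) and Lonp1 (-0.20, adjusted p = 0.0487) also passed in this edgeR fit. Clpx (-0.19, adjusted p = 0.0761), Spg7 (0.14, adjusted p = 0.174) and Clpp (-0.07, adjusted p = 0.637) did not. Leaving out each mouse in turn, Hspd1, Hspe1, Hspa9 and Htra2 were called every time, and 4 members were called without KO45 or without KO51, where 33.6% and 36.2% of all genes were called.

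Summed markers of other cells differed between the stages. B cell markers were higher in all DN4 libraries and highest in DN4 WT48, at 2877 CPM, the Wt DN4 library with the lowest Hspd1, Hspe1 and Hspa9. Markers of immature single positive and double positive cells were highest in DN4 KO45, at 2926 CPM, the library with the lowest Hspd1, Hspe1 and Hspa9 of all 13. Plasmacytoid dendritic cell markers summed to 109 to 284 CPM in DN3 and 416 to 844 CPM in DN4, and stromal markers to 16.7 to 58.5 CPM in DN3 and 9.23 to 11.7 CPM in DN4. NK and innate markers (239 to 326 CPM in DN3, 218 to 435 CPM in DN4) and gamma delta markers (581 to 1001 CPM, 503 to 1399 CPM) overlapped between the stages in their sums, but single markers did not stay level: in the fit over both genotypes with the mouse as a block, 3 of 4 NK and innate markers were called higher in DN4, and 2 of 3 gamma delta markers higher and 1 lower. Myeloid markers were at most 13.9 CPM and erythroid markers at most 6.19 CPM in any library. Within the myeloid list, Lyz2 was lower (-2.81) and Fcer1g higher (2.36) in Wt DN4 cells. In DN4 KO51, WT40 and WT46, the libraries with the lowest B cell markers (226, 315 and 419 CPM), Hspd1 had 514, 482 and 526 CPM, and markers of immature single positive and double positive cells had 1109, 1770 and 1117 CPM. The part of other cell types in the stage differences was not tested. The 7 proliferation markers summed to 2241 to 5071 CPM in DN3 and 2260 to 4150 CPM in DN4, and 0 of 7 were called between the stages in either genotype.

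Between the genotypes, 0 of 10 members were called in either stage. In DN3, 0% of 12105 genes were called by edgeR's quasi-likelihood test, Benjamini-Hochberg-adjusted, with 168 at an unadjusted p under 0.05, while DESeq2 called 0.0248% (3 genes, 0 members) and limma-voom 0%. The log2 differences of KO from Wt ran from -0.16 (Clpx) to 0.03 (Htra2), each with an adjusted p of 1, and without DN3 WT05 from -0.23 (Clpp) to 0.14 (Dnaja3). The 95% intervals were -0.64 to 0.36 for Hspd1, -0.45 to 0.37 for Hspe1, -0.39 to 0.40 for Hspa9 and -0.36 to 0.23 for Lonp1. Clpx was the member whose DN3 groups did not overlap, at 49.3 ± 2.41 CPM in KO and 54.7 ± 1.22 CPM in Wt (SD, n = 3 each), where 3.39% of genes were separated in that direction, but its log2 difference turned from -0.16 to 0.09 with library totals in place of TMM scaling. With that scaling, the median of all genes moved to 0.23, and that of the members to 0.19, so the shift was common to both.

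In DN4, 0.0535% of 13084 genes were called by edgeR (7, with 715 at an unadjusted p under 0.05), 0.398% by DESeq2 and 0.0611% by limma-voom, with 0 members in each. The differences ran from -0.24 for Hspd1 (SE 0.238, adjusted p = 0.94) to 0.18 for Htra2 (SE 0.159, adjusted p = 0.927) by edgeR's quasi-likelihood test, Benjamini-Hochberg-adjusted. Hspd1 averaged 402 ± 135 CPM in KO (n = 3) and 484 ± 79.0 CPM in Wt (n = 4), with a 95% interval of the log2 difference of -0.79 to 0.31. Without DN4 KO45, the difference for Hspd1 was 0.00, and 0 of 10 members had a value below 0, against 5 of 10 with it. Spg7 had 88.6 ± 4.35 CPM in KO and 81.4 ± 7.01 CPM in Wt, with an interval of -0.07 to 0.38. The groups of all 10 members overlapped in DN4, where 7.14% of genes did not overlap in one direction or the other. Whether the stage difference itself differed between the genotypes was tested as an interaction over 13 libraries. Values ran from -0.14 (Hspd1) to 0.13 (Lonp1 and Clpx), and 0 of 10 members and 0% of 13361 genes were called by edgeR's quasi-likelihood test, Benjamini-Hochberg-adjusted, with 480 genes at an unadjusted p under 0.05. DESeq2 called 0.015% (2 genes) and limma-voom 0%, with 0 members in both, and edgeR with the mouse as a block called 0%. Without DN4 KO45, the value for Hspd1 was 0.11, and 0 of 10 members were below 0, against 5 of 10 with it. The 95% interval was -0.89 to 0.61 for Hspd1 and -0.66 to 0.48 for Hspa9. With the mouse as a block it was -0.59 to 0.29 for Hspd1 (-0.15, SE 0.196), -0.54 to 0.26 for Hspe1 and -0.49 to 0.36 for Hspa9.

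**Figure D3:**
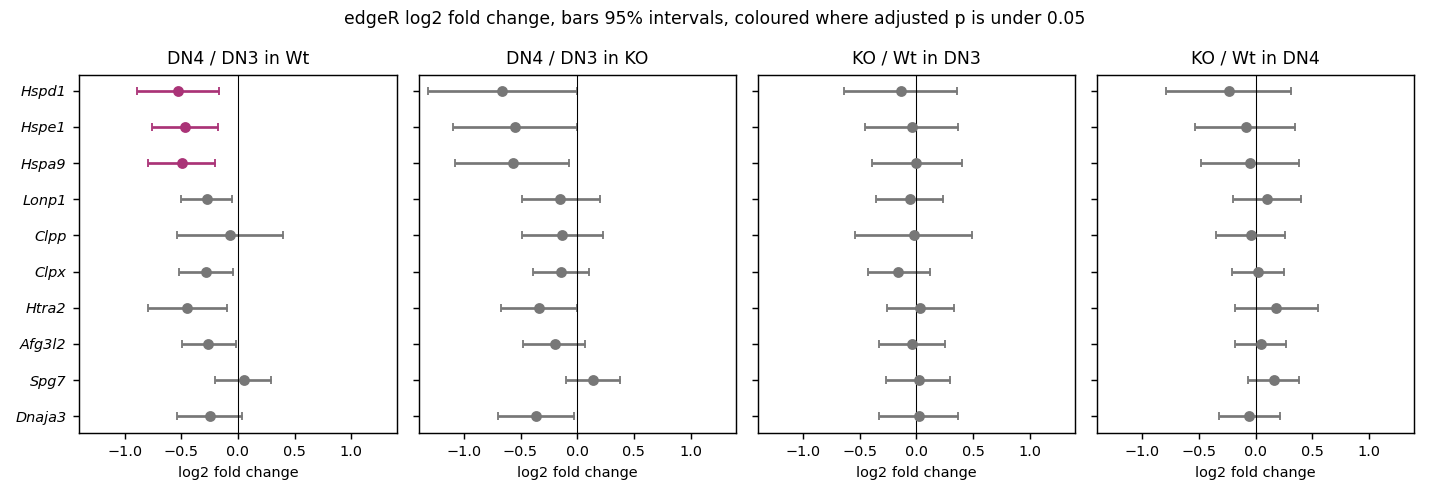
Log2 fold change and 95% interval of the 10 genes in the 2 comparisons of stage and the 2 of genotype, fitted without the mouse as a block; the vertical line at 0 marks no difference and colour marks an adjusted p under 0.05. Intervals for Hspd1, Hspe1 and Hspa9 lie below 0 in Wt, with colour, while in KO those of Hspd1 and Hspe1 reach up to 0.00, and intervals of all 10 genes cross 0 in the genotype comparisons.

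Subunits that work as complexes were compared as ratios of counts within a library, for which depth cancels; ratios of counts are not molar ratios, since transcripts differ in length. For the m-AAA subunits, Afg3l2 to Spg7 was 0.918, 1.105 and 1.132 in Wt DN3 and 0.817, 0.957, 0.833 and 0.815 in Wt DN4. In the KO mice it was 0.991, 1.007 and 1.017 in DN3 and 0.676, 0.848 and 0.860 in DN4. The ratio was lower in DN4 in 6 of 6 mice, by 0.35 on the log2 scale (SE 0.0619), and the KO groups did not overlap, while the Wt groups did through DN3 WT05 and DN4 WT40. An exact two-sided sign-flip test over 6 mice gave p = 0.0312, the smallest it can give, and an adjusted p of 0.375 over the 15 ratio tests. It thus failed the correction, which 1 ratio alone could not pass. The ratio did not separate the genotypes in DN3 (exact permutation test, p = 0.5) or in DN4 (p = 0.543).

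For the chaperonin, Hspe1 to Hspd1 lay between 0.212 (DN3 WT05) and 0.314 (DN4 KO45). It was higher in DN4 in 5 of 6 mice, by 0.12 on the log2 scale (SE 0.0509; exact sign-flip p = 0.0625, adjusted p = 0.375). For the matrix protease, Clpp to Clpx lay between 0.385 (DN3 WT05) and 0.806 (DN4 KO51), and was higher in DN4 in 3 mice and lower in 3 (exact sign-flip p = 0.438). None of the 15 tests passed after adjustment. With 3 libraries against 3, an exact permutation test cannot go below 0.1, and with 3 against 4 not below 0.0286.

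**Figure D4:**
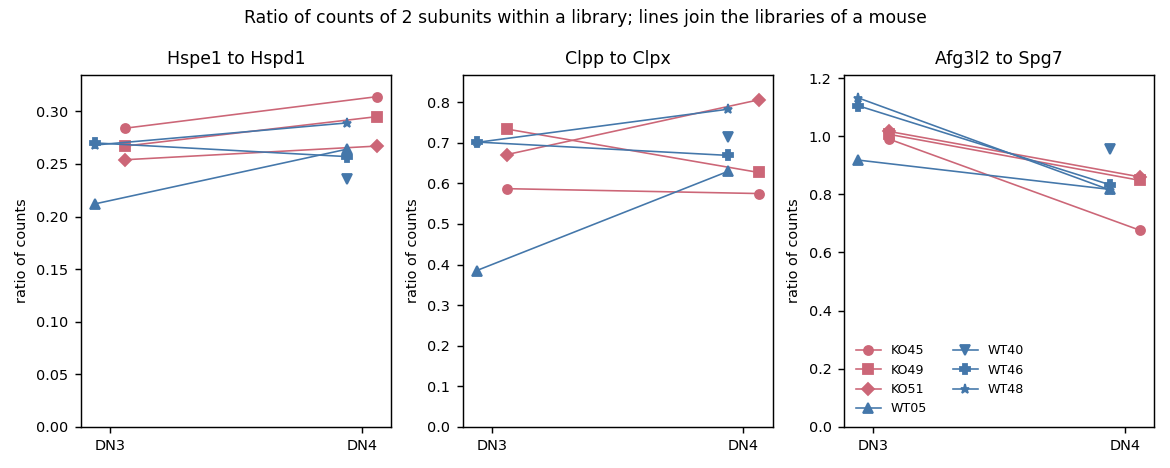
Ratio of counts (linear axes from 0) for Hspe1 to Hspd1, Clpp to Clpx and Afg3l2 to Spg7 in each library by stage and genotype, 1 point a library, with lines joining the libraries of a mouse. Afg3l2 to Spg7 is 0.918 to 1.132 in DN3 and 0.676 to 0.957 in DN4, and DN3 WT05 has the lowest Clpp to Clpx, 0.385.

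Levels of the chaperones rose and fell together across the 13 libraries. Pearson's r of log2(CPM + 1) was 0.95 for Hspd1 with Hspa9 and 0.95 for Hspe1 with Hspa9. The J-protein Dnaja3 had r = 0.80 with Hspd1, Lonp1 had 0.82 with Afg3l2 and Htra2 had 0.83 with Afg3l2, while Spg7 had negative values with all 9 other members, down to -0.59 with Hspa9. Clpp and Clpx, 2 parts of 1 protease, had r = 0.03, a value that rested on DN3 WT05: without that library it was 0.53, and r of Clpp with Hspd1 went from 0.23 to 0.76 over 12 libraries. The libraries share stage, mouse and composition, so these values are descriptions. Among 9243 genes with a mean of at least 10 CPM, those most like Hspd1 were Cct6a, a subunit of the cytosolic chaperonin TRiC (r = 0.987), the nucleolar RNA helicase gene Ddx21 (0.987) and Gtpbp4, a GTPase gene of ribosome assembly (0.985). Among those most like Lonp1 were Kctd17 (0.959) and Git1 (0.952), and those most like Htra2 were Zfp771 (0.950), Zfas1 (0.931) and Tysnd1, which encodes a peroxisomal protease (0.919).

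Other genes of the pathway were called in shares to be read against the 22.9% of all genes called between the stages in Wt and 18.6% in KO cells. Of 10 further matrix chaperones and import motor subunits, 2 were called lower in Wt DN4 cells and 0 higher (median -0.16, against -0.03 for all genes). They were Pam16, a regulator of the import motor, from 28.5 ± 4.50 to 20.1 ± 0.902 CPM (-0.54), and the mitochondrial HSP90 gene Trap1, from 245 ± 18.4 to 180 ± 15.5 CPM (-0.47). Pam16 was also called lower in KO cells (-0.55). Of 15 further mitochondrial proteases and peptidases, 2 were called lower in Wt cells and 1 higher (median -0.17). Pitrm1, the protease that clears cleaved presequences, went from 190 ± 14.3 to 126 ± 11.8 CPM (-0.62), and Afg3l1, another m-AAA subunit gene in mice, from 99.0 ± 9.33 to 75.6 ± 6.52 CPM (-0.41). Lactb, a filament-forming serine protease of the intermembrane space, went up from 6.77 ± 3.21 to 21.6 ± 5.70 CPM (1.58). Pitrm1 (-0.51) and Lactb (0.95) were called in KO cells too.

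Of 12 partners and substrates of these proteins, Phb, a prohibitin that binds the m-AAA protease, was called lower in Wt DN4 cells (-0.42). The median of that list in Wt was 0.02. Outside mitochondria, all 8 subunits of the cytosolic chaperonin TRiC had values below 0 in both genotypes, with medians of -0.28 in Wt and -0.36 in KO, and 1 was called in Wt, Cct3 (-0.46), and 0 in KO. Of 10 tested genes of the cytosolic HSP70 and HSP90 system, 0 were called in either genotype (medians -0.24 and -0.31). Chaperones of the endoplasmic reticulum were divided in Wt cells: of 12, Dnajb11 (0.42) and Dnajc3 (0.41) were called higher and Sdf2l1 (-0.43) lower, and in KO cells 0 were called. Of 9 transcription factor genes linked to mitochondrial stress and biogenesis, Myc was called lower in both genotypes, from 390 ± 88.3 to 201 ± 33.5 CPM in Wt (-0.98) and from 426 ± 39.9 to 222 ± 72.3 CPM in KO (-0.96). In the fit over both genotypes with the mouse as a block, where 18% of all genes were called lower, 5 of 8 TRiC genes were called lower and 0 higher. Of the cytosolic HSP70 and HSP90 system, 4 of 11 were called lower and 1 higher in that fit, of the endoplasmic reticulum chaperones 4 of 12 lower and 2 higher, and of the stress and biogenesis factors 1 of 9 lower and 1 higher. Within mitochondria, 3 of 10 further matrix chaperones were called lower and 1 higher, and 4 of 15 further proteases lower and 1 higher. All these calls are by edgeR's quasi-likelihood test, Benjamini-Hochberg-adjusted, and between the genotypes, in either stage or in the interaction, 0 genes of these 7 lists were called.

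Reads of the chaperone genes could be shared with copies elsewhere. The table lists 9 processed pseudogenes named after Hspd1, Hspe1 or Hspa9, of which 4 had 0 counts in every library. The highest was Hspd1-ps3, with 10 to 37 counts in a library, against 2607 to 7318 counts for Hspd1.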

How the data were processed

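RNA of DN3 and DN4 thymocytes of both genotypes was sequenced in 13 stranded mRNA libraries of 5926848 to 14148661 counts. The authors used Cutadapt for trimming, STAR for mapping and featureCounts for counting; the submitters' processing notes name mm10, and the annotation, tool versions and strand setting of counting are not given in the sources used here. The deposited values are whole-number counts for 47937 genes, without normalization, and 0 value columns were left unused. Symbols and coordinates are from GENCODE M21 (GRCm38), which held 47310 of the identifiers without their version.

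Groups of a comparison were fitted alone with edgeR 4.0.16 (R 4.3.3): filterByExpr with a minimum count of 10, TMM scaling, the quasi-likelihood test and Benjamini-Hochberg adjustment over all genes tested, at 0.05. Intervals are 95%, from the t distribution on each gene's total degrees of freedom in that test. Alternatives used DESeq2 1.42.0, limma-voom (limma 3.58.1), other scalings and filters, no ribosomal RNA-like genes, 1 fit of all libraries, each library left out and the mouse as a block. Ratios used a prior count of 0.5 and exact tests. The edgeR fit without a block was tested on simulated counts, for DN4 against DN3 in Wt and for KO against Wt in DN4.

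The number in a sample's name was taken as its mouse. Deviations of the DN3 and DN4 library of a number from their group means correlated over 13361 genes at 0.236 to 0.522 in the 3 KO mice and 0.118 to 0.187 in the 3 Wt mice. No correlation of libraries with different numbers is given beside these, so the pairing by mouse rests on the names. No 2 libraries of a group were duplicates (smallest chi-squared per degree of freedom 6.19).

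The members and gene lists were chosen with earlier results of these data known. All 10 members are named in every comparison; from each other list, up to 4 called genes with the largest change, and for Hspd1, Lonp1 and Htra2 the 3 genes of highest correlation; results for a few single genes are not reported here. With fewer than 5 mice a group, p-values measure only the spread between these mice.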

Additional observations from a re-analysis of the deposited data

Results flagged for a closer look

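In groups of 4 libraries, a library was singled out where its gap to the nearest other, divided by the range of the group, passed Dixon's 95% critical value. Of 13 values tested, all in Wt DN4 cells, 2 passed, where chance gives about 1 in 20. Clpp had 28.8 CPM in WT05 against 32.6 to 33.1 CPM in the other 3 mice (gap over range 0.868). The ratio of Afg3l2 to Spg7 was 0.957 in WT40, the mouse with no DN3 library, against 0.815 to 0.833 in the other 3 (gap over range 0.872).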

How the results depend on the processing

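No alternative turned the direction of a called member. In Wt DN4 against DN3, where 3 members were called, 0 were called with library totals as the scaling (14% of all genes called, against 22.9%), 1 (Hspa9) with no filter beyond 1 count (13.6%), and 1 (Htra2) with all 13 libraries in one fit (26.6%). With the mouse as a replicate block, which leaves out WT40, 0 were called (18.7%), as without DN4 WT40 and without the block (18.7%). Leaving out single libraries gave 0 to 3. Library totals moved the median of all genes from -0.03 to 0.16 in that comparison, where 9 members lay below the median of all genes, as in the main fit. DESeq2 and limma-voom called 4 each. In KO, where 0 were called, DESeq2 called 1 (Hspa9; 23.4% of all genes, against 18.6%), the mouse as a replicate block 5 (35.8%), and leaving out single libraries gave 0 to 2, with 2 (Hspa9 and Htra2) without DN4 KO51 (21.1%). In both genotypes together the count of 7 ran from 4 to 7 without single mice (32.8% to 43.7% of all genes, against 41%). In the genotype comparisons and the interaction 0 members were called under every alternative run, the block of the interaction included. No paired analysis was possible because the genotypes are in different mice, for the comparisons of genotype within a stage. Clpp had the lowest count of a member, 72 in DN3 WT05.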
